A study of Arabidopsis thaliana with 7 samples.

Results

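The transcripts of 10 enzymes that make carotenoids and run the xanthophyll cycle were compared between wild-type (WT) Arabidopsis thaliana seedlings and seedlings of the glk1 glk2 double mutant, which carries mutations in both GOLDEN2-LIKE transcription factor genes. The genes were chosen by identifier, and all 10 were found among the 27655 genes of the deposited table. They are PSY (AT5G17230), PDS (AT4G14210), ZDS (AT3G04870), LYCB (AT3G10230), LYCE (AT5G57030), BCH1 (AT4G25700), BCH2 (AT5G52570), LUT1 (AT3G53130), ZEP (AT5G67030) and VDE (AT1G08550). In RefSeq's TAIR10.1 annotation the identifiers carry these symbols or, for PDS3, LYC, LUT2, BETA-OHASE 1, BETA-OHASE 2, ABA1 and NPQ1, another symbol of the same enzyme. The study holds 3 WT libraries and 4 glk1 glk2 libraries of total RNA from whole seedlings. All seedlings were of the Col-0 ecotype and 12 days old, were raised on 1/2 MS medium in long days at 16 °C, and were sampled 4 h after lights on (ZT4). The mutant alleles are not named in the labels. The labels do not say whether libraries of a group are separate plantings. The p-values therefore rest on library-to-library variation among these 7, possibly technical in origin.

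Carotenoids are plastid pigments built from isoprenoid units. Phytoene synthase (PSY) commits geranylgeranyl diphosphate to the pathway, the desaturases PDS and ZDS lengthen the chain of conjugated double bonds, and the cyclases LYCB and LYCE close the ring ends of lycopene. The branch through LYCE and LUT1 leads to lutein, the most abundant xanthophyll of leaves, and the branch through BCH1, BCH2 and ZEP leads to zeaxanthin and violaxanthin. In excess light VDE turns violaxanthin back into zeaxanthin, which helps the antenna to dissipate energy, and ZEP reverses this step. Carotenoids are bound by the same antenna and photosystem proteins as chlorophyll, and GLK1 and GLK2 are known for activating genes of those proteins and of chlorophyll synthesis.

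The 2 mutated genes themselves were lower in all 4 mutant libraries. GLK1 had 183, 186.57 and 202.57 TPM in WT and 49.74 to 55.97 TPM in the mutant. GLK2 had 155.2 to 160.87 TPM in WT and 45.97 to 54.4 TPM in the mutant. TPM is a length-corrected share of a library with a fixed sum, so a loss of abundant transcripts lifts the shares of all others. The median log2 fold change of the 19127 genes tested was 0.33 in TPM and 0.011 after TMM scaling, which centres the bulk of the genes on 0. Fold changes compare glk1 glk2 with WT and stand on the log2(value + 1) scale. A gene was called at a limma adjusted p (Benjamini-Hochberg over all genes tested) under 0.05, and "rose" and "fell" are written only where TPM and TMM-scaled values were both called in that direction. In the column of WT replicate 1 the values follow alphabetical order of the gene identifiers where the rows do not, and they were read in that order. Among the 10 genes this sets LYCB (103.45 TPM, in place of 0.31) and LUT1 (13.21 TPM, in place of 2.53) in that library. With that library as deposited, neither was called in TPM (limma adjusted p = 0.215 and 0.159). By the rule above 3.20% of all genes tested rose and 2.53% fell.

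With both scalings PSY and BCH2 fell and ZDS rose, so 3 of the 10 genes changed. The count was 2, with ZDS lost, in 11 of 15 alternatives, among them the 6 that each left out 1 library other than mutant replicate 3. It was 5 without mutant replicate 3 and with array weights, where BCH1 and ZEP were called higher as well. In TPM 7 of the 10 were called higher, against 63.0% of all genes tested, and 2 lower, against 2.56%. After TMM scaling 1 was called higher, against 3.20%, and 3 lower, against 4.96%. In TPM the mutant and WT libraries did not overlap for 9 of the 10, with 7 higher (62.8% of all genes tested) and 2 lower (2.54%). With TMM-scaled values 3 were higher without overlap (12.1% of all genes tested) and 3 lower (11.7%). The median of the 10 genes was 0.36 for the log2 fold change in TPM and 0.010 for the TMM-scaled one, close to the medians of all genes given above. In whole seedlings, fewer cells of a type and less RNA per cell cannot be told apart.

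**Figure D1:**
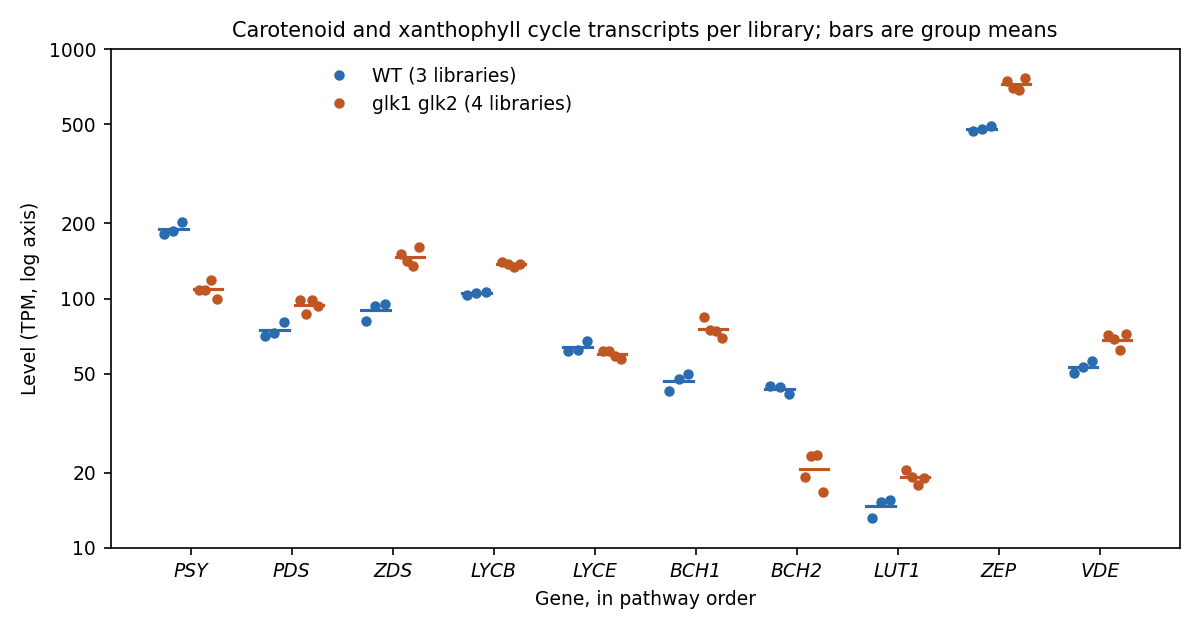
Level of each of the 10 transcripts in TPM on a log axis, with 1 point per library for 3 WT and 4 glk1 glk2 libraries and a bar at each group mean. PSY and BCH2 lie lower in every mutant library, LYCE overlaps between the groups, and the other 7 lie higher.

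PSY, at the entry of the pathway (chromosome 5, positions 5659554 to 5662997, minus strand, TAIR10.1), had 181.66, 187.28 and 203.22 TPM in the 3 WT libraries and 108.01, 108.11, 119.19 and 99.71 TPM in the 4 mutant libraries. The groups did not overlap, and the mean fell by 43.0%, from 191 ± 11.2 TPM in WT (SD, n = 3) to 109 ± 7.99 TPM in the mutant (SD, n = 4). The log2 fold change was -0.81 ± 0.07 (SE, limma adjusted p = 0.000169) in TPM and -1.17 ± 0.08 with TMM-scaled values (adjusted p = 3.35e-05). PSY was the second most abundant of the 10 transcripts in each WT library and stood at rank 4 in each mutant library. It made up 16.2% to 16.8% of the summed TPM of the 10 genes in WT and 6.68% to 8.45% in the mutant. PSY shares 108 of 2509 annotated exonic bases (4.30%) with GSTF12, a gene on the opposite strand that encodes a glutathione transferase thought to carry anthocyanin. GSTF12 averaged 26.7 TPM in WT libraries (23.03 to 32.85) and 53.9 TPM in mutant libraries (34.12 to 98.58). Its TMM-scaled difference was not called (limma adjusted p = 0.3412). Without a stated strand setting, reads of the shared bases cannot be told apart.

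PDS and ZDS encode the desaturases that act one after the other on phytoene and zeta-carotene. PDS (chromosome 4, positions 8190190 to 8195320) had 71.07, 72.99 and 80.24 TPM in WT and 98.27, 86.51, 99.07 and 93.37 TPM in the mutant. The mutant libraries were higher in TPM by 0.33 ± 0.07 on the log2 scale (SE, limma adjusted p = 0.00357), the same as the median of all genes, and after TMM scaling the difference was -0.03 (95% interval -0.18 to 0.12, adjusted p = 0.839). ZDS (chromosome 3, positions 1342455 to 1346387) had 81.02, 93 and 94.89 TPM in WT and 151.14, 141.2, 134.72 and 161.47 TPM in the mutant. Every mutant library lay above every WT library with both scalings. The log2 fold change of ZDS was 0.71 ± 0.08 (SE, limma adjusted p = 0.000398) in TPM and 0.35 ± 0.09 with TMM-scaled values (adjusted p = 0.0482). The TMM-scaled call of ZDS held in 4 of 15 alternatives and was lost without any 1 of WT replicates 1, 2 and 3 or mutant replicates 1, 2 and 4 (adjusted p from 0.0686 to 0.173). ZDS shares 115 exonic bases (5.29%) with DRT102 on the opposite strand, which averaged 46.1 TPM in WT libraries and 64.2 TPM in mutant libraries.

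LYCB and LYCE are the cyclases at which the pathway divides: LYCB makes the beta rings of both branches and LYCE the epsilon ring of lutein. LYCB (chromosome 3, positions 3164075 to 3166038) had 103.45, 105.23 and 106.04 TPM in WT and 140.4, 137.16, 134.44 and 137.1 TPM in the mutant. The log2 fold change was 0.38 ± 0.05 (SE, limma adjusted p = 0.000543) in TPM, again close to the median of all genes, and the TMM-scaled one was 0.03 (95% interval -0.11 to 0.16, adjusted p = 0.825). LYCE (chromosome 5, positions 23077120 to 23080096) had 61.33, 62.44 and 67.86 TPM in WT and 61.82, 61.48, 58.75 and 57.26 TPM in the mutant. It was the only one of the 10 whose groups overlapped in TPM, where its log2 fold change was -0.09 ± 0.06 (adjusted p = 0.198). After TMM scaling LYCE was called lower, its log2 fold change being -0.45 ± 0.07 (SE, limma adjusted p = 0.00656). Because the scalings differ on LYCE, it is not counted as having fallen. LYCE shares 74 exonic bases (3.47%) with NMT1 on the same strand. LYCB shares 157 exonic bases (7.99%) with EMB2804 on the opposite strand, and 199 (10.1%) with an opposite-strand long noncoding RNA.

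**Figure D2:**
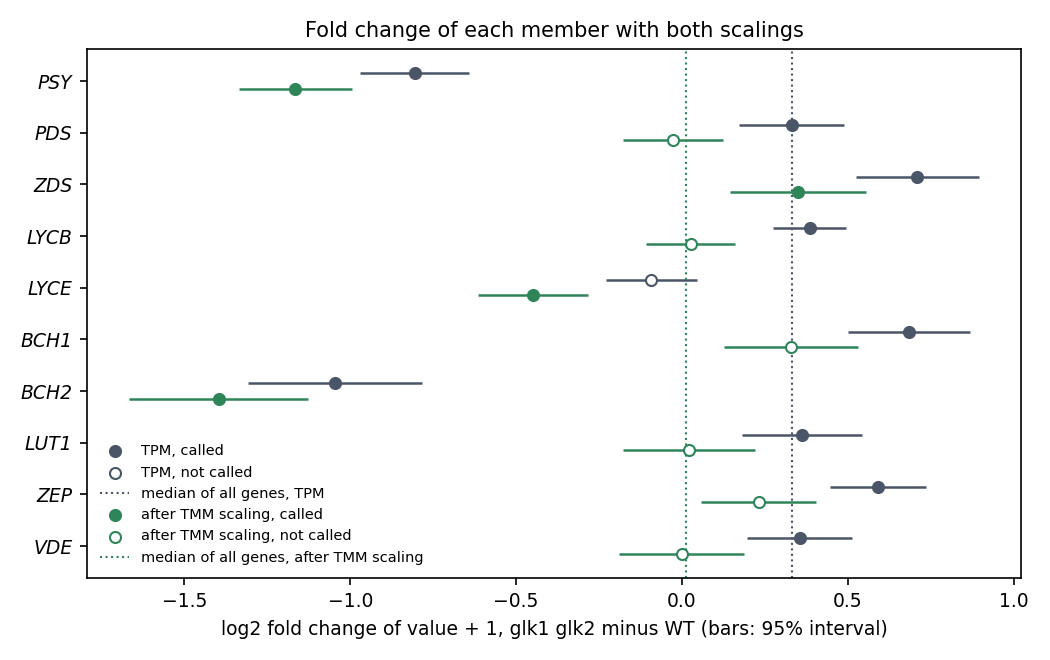
Log2 fold change of each of the 10 genes, glk1 glk2 minus WT, in TPM (grey) and after TMM scaling (green), with 95% intervals, filled where the limma adjusted p was under 0.05, and with the median of all tested genes as dotted lines at 0.33 and 0.011. PSY and BCH2 lie left of 0 with both scalings, and the intervals of PDS, LYCB, LUT1 and VDE span the dotted lines.

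BCH1 and BCH2 are paralogs that hydroxylate the beta rings of beta-carotene to give zeaxanthin, and the ratio of their transcripts differed between the groups. BCH2 (chromosome 5, positions 21334793 to 21337126) had 44.78, 44.27 and 41.38 TPM in WT and 19.32, 23.26, 23.6 and 16.68 TPM in the mutant. It fell in every mutant library, by 52.4% of its mean TPM, its log2 fold change being -1.05 ± 0.12 (SE, limma adjusted p = 0.000349) in TPM and -1.40 ± 0.12 with TMM-scaled values (adjusted p = 0.000186). BCH1 (chromosome 4, positions 13093869 to 13096049) had 42.55, 47.75 and 50.01 TPM in WT and 83.98, 75.09, 74.24 and 69.66 TPM in the mutant. Its groups did not overlap with either scaling. The log2 fold change of BCH1 was 0.68 ± 0.08 (SE, limma adjusted p = 0.000423) in TPM and 0.33 ± 0.09 with TMM-scaled values (adjusted p = 0.0589), which misses the threshold. Without mutant replicate 3 the TMM-scaled adjusted p of BCH1 was 0.0485. With quantile normalization BCH1 was called higher (log2 fold change 0.34, limma adjusted p = 0.0442), and with median-of-ratios scaling it was not (adjusted p = 0.0601). Of the 15 alternatives run with both scalings, BCH1 was called with both in 2, and its TMM-scaled adjusted p reached 0.201. BCH2 made up 51.3%, 48.1% and 45.3% of the summed BCH1 and BCH2 transcripts in the WT libraries and 18.7%, 23.7%, 24.1% and 19.3% in the mutant libraries. The sum of both was 90.3 ± 2.55 TPM (SD, n = 3) in WT and 96.5 ± 7.18 TPM (SD, n = 4) in the mutant. TMM-scaled, BCH1 averaged 54.0 in WT and 68.1 in the mutant, and BCH2 50.2 and 18.6. The direction of the difference in the sum therefore depends on the scaling. The exons of BCH1 and BCH2 have 0 identical stretches of 50 bases in common. BCH2 shares 19 exonic bases (1.5%) with USP on the opposite strand, and BCH1 shares none with another annotated gene.

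The 250 bases before the annotated gene starts of these paralogs and of PSY are given below because BCH2 and PSY fell and BCH1 was called higher in TPM. They were read 5' to 3' on the gene's strand from RefSeq TAIR10.1: chromosome 5, positions 21337127 to 21337376, for BCH2; chromosome 4, positions 13096050 to 13096299, for BCH1; and chromosome 5, positions 5662998 to 5663247, for PSY. All 3 genes lie on the minus strand, and the windows touch no other annotated gene. Capitals mark matches on either strand to CCAATC or GATTCT, short motifs that have been linked to GLK proteins, or to CACGTG, the G-box bound by several light-response factors. None of these motifs overlaps another in the windows shown.
BCH2: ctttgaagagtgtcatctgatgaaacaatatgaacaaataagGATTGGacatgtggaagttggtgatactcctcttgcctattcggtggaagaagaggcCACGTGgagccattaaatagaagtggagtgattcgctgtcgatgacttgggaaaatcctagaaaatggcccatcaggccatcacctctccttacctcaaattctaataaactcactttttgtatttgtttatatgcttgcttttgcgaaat
BCH1: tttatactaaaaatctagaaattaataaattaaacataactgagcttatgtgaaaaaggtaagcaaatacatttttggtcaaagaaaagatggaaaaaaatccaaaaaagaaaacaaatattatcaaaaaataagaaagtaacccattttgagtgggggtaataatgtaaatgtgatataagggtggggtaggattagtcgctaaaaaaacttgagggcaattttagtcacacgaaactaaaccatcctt
PSY: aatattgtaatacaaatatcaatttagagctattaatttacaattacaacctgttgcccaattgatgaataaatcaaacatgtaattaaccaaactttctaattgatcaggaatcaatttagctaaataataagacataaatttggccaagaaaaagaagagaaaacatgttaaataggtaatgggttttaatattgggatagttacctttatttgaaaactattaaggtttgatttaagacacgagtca
BCH2 holds CCAATC 208 to 203 bases before its start, written GATTGG on this strand, and the G-box 151 to 146 bases before it. The windows of BCH1 and PSY hold none of the 3 motifs. Among the 10 genes, CCAATC also occurs before LYCE, in a window that lies wholly within its neighbour NMT1, and GATTCT before ZDS and VDE, the latter in a window with 243 of its 250 bases in the neighbour AT1G08540. Of 27443 nuclear protein-coding genes, 10.2% hold CCAATC in such a window, 15.9% GATTCT and 6.49% CACGTG, so a match is common by itself. These matches describe letters in a window and say nothing of binding.

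LUT1, a cytochrome P450 that hydroxylates the epsilon ring on the way to lutein (chromosome 3, positions 19692757 to 19697542), was the least abundant of the 10 in WT, with 13.21, 15.3 and 15.61 TPM. In the mutant it had 20.53, 19.19, 17.92 and 19.02 TPM, and there its range overlapped that of BCH2. Its log2 fold change was 0.36 ± 0.08 (SE, limma adjusted p = 0.00436) in TPM and 0.02 (95% interval -0.18 to 0.22, adjusted p = 0.908) after TMM scaling. Of the annotated exonic bases of LUT1, 39.2% are shared with AT3G53140, a gene on the same strand that is listed at 0 TPM in all 7 libraries, so the level of LUT1 is uncertain.

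ZEP and VDE run the xanthophyll cycle in opposite directions. ZEP, the epoxidase that makes violaxanthin from zeaxanthin (chromosome 5, positions 26753469 to 26757402), was the most abundant of the 10 in all 7 libraries. It had 469.24, 477.64 and 493.6 TPM in WT and 747.52, 699.63, 686.85 and 765.57 TPM in the mutant, and the groups did not overlap with either scaling. Its log2 fold change was 0.59 ± 0.06 (SE, limma adjusted p = 0.000333) in TPM and 0.23 ± 0.08 with TMM-scaled values (adjusted p = 0.104). ZEP was thus called in TPM and not after TMM scaling. With quantile normalization it was called higher (log2 fold change 0.38, limma adjusted p = 0.0134), and with median-of-ratios scaling it was not (adjusted p = 0.106). Without mutant replicate 3 the TMM-scaled adjusted p of ZEP was 0.0301. Of the 15 alternatives run with both scalings, ZEP was called with both in 2, and its TMM-scaled adjusted p reached 0.36. ZEP made up 40.8% to 41.9% of the summed TPM of the 10 genes in WT and 48.7% to 51.3% in the mutant. VDE (chromosome 1, positions 2706868 to 2709988) had 50.48, 53.28 and 56.03 TPM in WT and 71.22, 68.94, 61.92 and 71.78 TPM in the mutant. Its log2 fold change was 0.36 ± 0.07 (SE, limma adjusted p = 0.00266) in TPM, near the median of all genes, and -0.0009 (95% interval -0.19 to 0.19, adjusted p = 0.996) after TMM scaling. VDE shares 464 exonic bases (18.0%) with SYP111 on the opposite strand, which averaged 19.7 TPM in WT libraries and 19.9 TPM in mutant libraries.

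The order of the levels within a library, which no scaling of that library can change, differed between the groups. By mean TPM, from the highest down, it was ZEP, PSY, LYCB, ZDS, PDS, LYCE, VDE, BCH1, BCH2 and LUT1 in WT. Ranges in TPM overlapped there only for the neighbours BCH1 and BCH2. In the mutant it was ZEP, ZDS, LYCB, PSY, PDS, BCH1, VDE, LYCE, BCH2 and LUT1. There the TPM ranges of ZDS and LYCB overlapped, as did those of BCH1 and VDE and those of BCH2 and LUT1. Unlike ranks within a library, ranges across libraries depend on the scaling. ZDS was thus at rank 4 in each WT library and at rank 2 in each mutant library, and LYCE went from rank 6 to rank 8.

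Ratios of transcripts within a library also do not depend on its scaling, and 5 of them were tested by exact permutation, two-sided, with 35 possible divisions of the libraries. The smallest p these allow is 0.0286, and adjusted values are over the 5 ratios. The 5 pairs were chosen with earlier results of these data known, and the adjustment does not cover that choice. The ratios restate the levels of the single genes and are no separate evidence. The largest fold among the 5 was that of BCH2 to BCH1, which was 1.05, 0.927 and 0.827 in WT and 0.230, 0.310, 0.318 and 0.239 in the mutant. It was 3.43-fold lower, a log2 difference of -1.78 ± 0.16 (SE, exact permutation p = 0.0286, adjusted p = 0.0357). PSY to PDS, the entry enzyme against the next step, was 2.56, 2.57 and 2.53 in WT and 1.10, 1.25, 1.2 and 1.07 in the mutant, 2.21-fold lower (log2 difference -1.15 ± 0.05, exact permutation p = 0.0286, adjusted p = 0.0357).

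LYCE to LYCB was 0.593, 0.593 and 0.640 in WT and 0.440, 0.448, 0.437 and 0.418 in the mutant, 1.4-fold lower (log2 difference -0.48 ± 0.04, exact permutation p = 0.0286, adjusted p = 0.0357). The log2 difference was -3.276 if the LYCB value of WT replicate 1 was taken as deposited. Transcripts of the lutein-branch cyclase were lower relative to those of the beta cyclase in every mutant library. ZEP to VDE was 9.30, 8.97 and 8.81 in WT and 10.5, 10.2, 11.1 and 10.7 in the mutant, 1.17-fold higher (log2 difference 0.23 ± 0.04, exact permutation p = 0.0286, adjusted p = 0.0357). ZDS to PDS was 1.14, 1.27 and 1.18 in WT and 1.54, 1.63, 1.36 and 1.73 in the mutant. Its groups did not overlap, but the difference of 0.38 ± 0.09 on the log2 scale did not pass the test (exact permutation p = 0.0571, adjusted p = 0.0571).

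**Figure D3:**
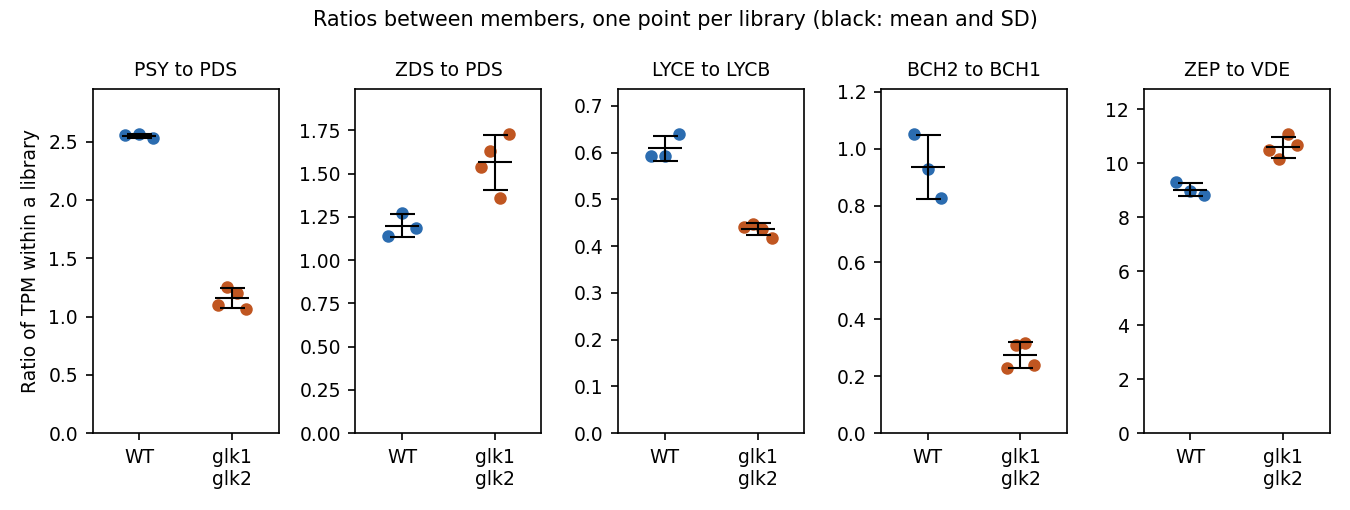
Ratio of TPM between members of 5 pairs within each library, with 1 point per library, the mean and the SD (n = 3 WT, n = 4 glk1 glk2), and every vertical axis starting at 0. The groups do not overlap in any of the 5 panels, and the fold between the group means is largest for BCH2 to BCH1.

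Of 7 other genes of carotenoid synthesis, 0 rose, against 3.20% of all genes tested, and 0 fell, against 2.53%. In TPM 5 of them were called higher by limma, against 63.0% of all genes tested, and none lower, against 2.56%. An unadjusted p under 0.05 was found for 5 (70.0% of all genes tested). TMM-scaled, none was called higher, against 3.20%, and 1 lower, against 4.96%, with 1 at an unadjusted p under 0.05 (24.5% of all genes tested). Their median log2 fold change was 0.36 in TPM and -0.002 after TMM scaling. The isomerase genes Z-ISO and CRTISO, LUT5, a cytochrome P450 that hydroxylates beta rings, and PTOX, the plastid terminal oxidase that takes up electrons from phytoene desaturation, all had TMM-scaled fold changes between -0.02 and 0.07 on the log2 scale. The list also holds ABA4, TMM-scaled at -0.19 (limma adjusted p = 0.282), and OR-like (AT5G06130), at 0.07 (adjusted p = 0.524). The smallest TMM-scaled p belonged to AT5G61670, which encodes an orange protein, a chaperone-like protein that stabilises PSY. It had 119 ± 0.38 TPM (SD, n = 3) in WT and 111 ± 6.80 TPM (SD, n = 4) in the mutant. Its log2 fold change was -0.10 (limma adjusted p = 0.174) in TPM and -0.46 with TMM-scaled values (adjusted p = 0.00776).

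Upstream of PSY, DXS was the 1 gene of 11 for the plastid methylerythritol phosphate (MEP) route and geranylgeranyl diphosphate supply that fell, and 0 rose. Of all genes tested 2.53% fell and 3.20% rose. DXS, also named CLA1, encodes the first enzyme of the MEP route and is known as one of its main control points. It had 328.98, 334.85 and 352.22 TPM in WT and 213.8, 195.64, 235.38 and 201.9 TPM in the mutant. The groups did not overlap, and the log2 fold change was -0.68 ± 0.07 (SE, limma adjusted p = 0.000333) in TPM and -1.04 ± 0.07 with TMM-scaled values (adjusted p = 3.49e-05). DXR, the second enzyme of that route, and GGPPS11, the main plastid geranylgeranyl diphosphate synthase, were called lower after TMM scaling only (log2 fold changes -0.36 and -0.34, limma adjusted p = 0.0089 and 0.00762). In TPM they had 125 and 76.8 TPM in WT and 125 and 77.7 TPM in the mutant. In TPM 8 of the 11 were called higher by limma, against 63.0% of all genes tested, and 1 was called lower, against 2.56%. TMM-scaled, none was called higher, against 3.20%, and 3 lower, against 4.96%. The median log2 fold changes were 0.30 in TPM and -0.06 after TMM scaling.

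Downstream, 13 genes for carotenoid cleavage and abscisic acid synthesis were listed and 7 passed the filter on low values. None of the 7 rose or fell by limma with both scalings, against 3.20% and 2.53% of all genes tested. In TPM limma put 5 past the threshold, all higher, against 63.0% of all genes tested. TMM-scaled it put 0 there, against 3.20% of all genes called higher and 4.96% lower. The unadjusted p was under 0.05 for 5 in TPM and for 2 TMM-scaled, against 70.0% and 24.5% of all genes tested. The smallest TMM-scaled p was that of CCD4, a plastid dioxygenase that breaks down carotenoids, with 435.85, 410.86 and 410.66 TPM in WT and 731, 623.26, 626.32 and 774.63 TPM in the mutant. Its log2 fold change was 0.71 ± 0.09 (SE, limma adjusted p = 0.000529) in TPM and 0.35 ± 0.09 with TMM-scaled values (adjusted p = 0.0594). CCD4 was called higher TMM-scaled in only 2 of 15 alternatives. These were without mutant replicate 3 (log2 fold change 0.41, limma adjusted p = 0.0137) and with array weights (0.43, adjusted p = 0.0013). Elsewhere its TMM-scaled adjusted p reached 0.22. NCED3, the main stress-induced enzyme of abscisic acid synthesis, had 4.82 ± 0.50 TPM (SD, n = 3) in WT and 5.04 ± 0.87 TPM (SD, n = 4) in the mutant (TMM-scaled limma adjusted p = 0.208). CCD7, CCD8, NCED2, NCED5, NCED6 and NCED9 lay under the filter, at 0 to 0.96 TPM in every library.

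Of 10 genes for tocopherols and prenylquinones, which draw on the same precursor, 2 rose, against 3.20% of all genes tested, and 2 fell, against 2.53%. AT1G74470, the geranylgeranyl reductase that makes the phytyl chain of chlorophyll and tocopherol, fell from a WT mean of 1032 ± 34.3 TPM (SD, n = 3) to a mutant mean of 580 ± 26.8 TPM (SD, n = 4). Its log2 fold changes were -0.83 in TPM and -1.19 TMM-scaled (limma adjusted p = 8.33e-05 and 3.09e-05). VTE5, a phytol kinase, fell from 58.5 ± 1.36 to 45.0 ± 3.75 TPM (log2 fold changes -0.37 and -0.73, limma adjusted p = 0.00238 and 0.0013). VTE4, gamma-tocopherol methyltransferase, rose from 43.7 ± 3.39 to 81.7 ± 3.77 TPM (log2 fold changes 0.89 and 0.53, limma adjusted p = 8.98e-05 and 0.00353). SPS1, a solanesyl diphosphate synthase, rose from 50.7 ± 3.96 to 82.0 ± 5.64 TPM (log2 fold changes 0.69 and 0.33, limma adjusted p = 0.000356 and 0.0443). The TMM-scaled call of SPS1 held in 5 of 15 alternatives and was lost without any 1 of WT replicates 1, 2 and 3 or mutant replicates 1, 2 and 4 (adjusted p from 0.0795 to 0.141). The median log2 fold change of the 10 genes was 0.34 in TPM and -0.01 after TMM scaling.

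**Figure D4:**
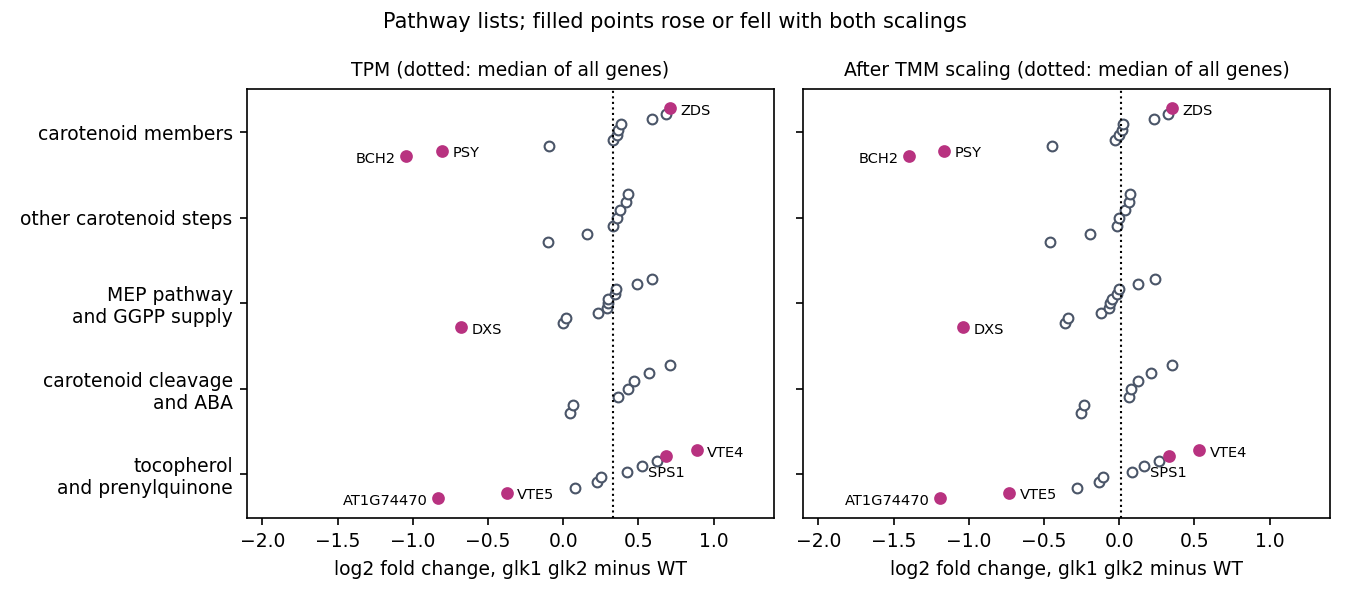
Log2 fold change, glk1 glk2 minus WT, of every tested gene of 5 pathway lists in TPM (left) and after TMM scaling (right), with filled, named points for genes that rose or fell with both scalings and dotted lines at the median of all genes. Open points gather around the dotted lines, and PSY, BCH2, DXS and AT1G74470 lie farthest to the left with both scalings.

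Likeness of profiles was measured as the root mean square difference over the 7 libraries, with each gene taken as log2(TPM + 1) minus its own WT mean, among 14690 genes with a mean of at least 5 TPM. The genes closest to PSY were UGT88A1, a glucosyl transferase, at 0.051, AT4G37550, of the acetamidase and formamidase family, at 0.069, and CHLM, a methyltransferase of chlorophyll synthesis, at 0.079. In WT and mutant libraries UGT88A1 averaged 157.9 and 91.89 TPM, AT4G37550 32.7 and 17.72 TPM, and CHLM 350.1 and 205 TPM. The genes closest to BCH2 were COR413IM1, a cold-regulated protein of the chloroplast inner envelope, at 0.118, PSAL, a photosystem I subunit, at 0.129, and ETP1, which targets the ethylene signalling protein EIN2, at 0.132. In WT and mutant libraries COR413IM1 averaged 50.97 and 25.12 TPM, PSAL 4963 and 2526 TPM, and ETP1 31.28 and 13.4 TPM. All these values come from the same 7 libraries and are a description only.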

How the data were processed

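The authors deposited 1 table of TPM values for 27655 genes, with 1 column for each of the 3 WT and 4 glk1 glk2 libraries. Per the submitters' processing notes, TopHat2, Cufflinks and the build TAIR10 were used, with no version named. For the annotation, filters and strand setting, the sources used here give nothing. Deposited TPM sum to 1000000 or, rounded to a whole number, 1000001 in each library, so the depth behind them is unknown and counting intervals are left out. Of 27655 rows, 5606 are not in alphabetical order of the gene identifiers. Across the genes of these rows, WT replicate 1 (log2(TPM + 1)) had r = 0.055 with the remaining libraries when taken as deposited, r = 0.996 when its values followed alphabetical order, and r = 0.994 in rows already in order. Its values were therefore read in alphabetical order. Of the 10 members this changes LYCB (0.31 TPM as deposited, 103.45 as read) and LUT1 (2.53 and 13.21).

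Genes with at least 1 TPM in at least 3 libraries were tested as log2(TPM + 1) with limma 3.58.1 in R 4.3.3 (lmFit, eBayes with trend, two-sided, all 7 libraries, no covariates). The same fit was run after division by TMM factors computed on the TPM table (unweighted, trimming 30% by log ratio and 5% by mean level). The factors were 0.853 to 0.877 in WT and 1.06 to 1.16 in the mutant. Ratios were compared by exact permutation in Python 3.11.15. Both procedures were run on simulated data. The limma simulation gave rises and falls to randomly drawn genes and built in no loss of abundant transcripts. It therefore does not show how TPM and TMM-scaled calls behave under such a loss. Symbols, positions and sequences come from RefSeq TAIR10.1. The deposited table holds no coordinates. All 10 members were matched by locus tag, and none of their exonic 50-base stretches occurs elsewhere in the genome (0 of each gene's, exact matches). The members, lists, ratios and the rule for named genes were chosen with earlier results of these data known. Named are all members, GLK1 and GLK2, every gene of the other lists called with both scalings or else the one with the smallest TMM-scaled p, and the 3 closest profiles to PSY and BCH2. Z-ISO, CRTISO, LUT5, PTOX, ABA4, OR-like, DXR, GGPPS11 and NCED3 were named in addition, after their values were seen. So were the genes under the filter and the genes that overlap members.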

Additional observations from a re-analysis of the deposited data

How the results depend on the processing

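PSY, BCH2, DXS, VTE4, VTE5, AT1G74470, GLK1 and GLK2 were called with both scalings in all 15 alternatives run with each (pseudocount of 0.1, other filters, no trend, array weights, the replicate block, other readings of WT replicate 1, and each library left out). With both scalings 3 members were called. That count was 5 with array weights and 2 to 5 with a library left out, and the 5 came without mutant replicate 3, where BCH1 (limma adjusted p = 0.0485 after TMM scaling) and ZEP (0.0301) were also called. In TPM 9 members were called, 4 with median-of-ratios scaling and 6 with quantile normalization. BCH1 and ZEP were among those called higher with quantile normalization (limma adjusted p = 0.0442 and 0.0134). Neither was called with median-of-ratios scaling (limma adjusted p = 0.0601 and 0.106). After TMM scaling 4 were called, and 3 to 6 with a library left out. PDS and VDE changed sign in TPM with TMM scaling (-0.027 and -0.001) and median-of-ratios scaling (-0.031 and -0.005). PDS did so with quantile normalization too (-0.011). None of these values was called (limma adjusted p from 0.811 to 0.996). After TMM scaling PDS (0.040) and VDE (0.051) changed sign with array weights. LUT1 did so with the out-of-order rows of WT replicate 1 missing (-0.056). With a library left out, PDS ran from -0.065 to 0.035, LUT1 from -0.053 to 0.074 and VDE from -0.041 to 0.066.

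With a library left out, the log2 differences of the ratios ran from -1.185 to -1.110 (PSY to PDS), 0.330 to 0.446 (ZDS to PDS), -0.5 to -0.445 (LYCE to LYCB), -1.864 to -1.690 (BCH2 to BCH1) and 0.210 to 0.254 (ZEP to VDE). An exact permutation test there can reach only p = 0.0667 or 0.1, so it gives no call. With WT replicate 1 as deposited, LYCE to LYCB was -3.276.

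Deviations of same-numbered libraries from their group means correlated across genes at -0.096, 0.171 and 0.155. Those of differently numbered libraries ran from -0.239 to 0.275. With so few libraries behind each group mean, these values cannot decide whether replicate numbers pair the libraries. With the replicate block (without mutant replicate 4) 2 members were called after TMM scaling, and LYCE and AT5G61670 lost their TMM-scaled calls (limma adjusted p = 0.0644 and 0.0554). The paired ratio differences were -1.110 (PSY to PDS), -0.461 (LYCE to LYCB), -1.718 (BCH2 to BCH1) and 0.229 (ZEP to VDE), where 3 pairs allow no p under 0.25.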
